A study of Mus musculus with 8 samples.

Results

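The 33 genes described here are solute carriers that move amino acids and small peptides across the membranes of intestinal epithelial cells. They were chosen by gene name from a fixed list, and all 33 were found among the 54139 genes of the deposited tables. RNA was sequenced in 8 libraries of mouse intestinal epithelial cells. The 4 cKO libraries came from mice with a floxed Rictor allele and Villin-Cre, and the 4 WT libraries from mice with Villin-Cre alone, so both groups carry the Cre driver. Villin-Cre expresses the recombinase in the intestinal epithelium. Rictor is the defining subunit of mTOR complex 2, a kinase complex upstream of Akt and SGK1. Age, sex, intestinal segment, floxed exons and the way the cells were isolated are not stated in the labels. No label ties a library to an animal of its own, so a p-value here measures spread among libraries that may be partly technical.

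Dietary protein reaches the enterocyte as free amino acids and as di- and tripeptides. Sodium- and proton-coupled carriers of the brush border concentrate them in the cell, and exchangers and facilitators of the basolateral membrane pass them on to the blood. Several of these carriers work only as pairs, in which a glycoprotein heavy chain of the SLC3 family brings a light chain of the SLC7 family to the membrane. In cultured cells, SGK1 and Akt raise the surface abundance of some amino acid carriers, and amino acids that enter the cell activate mTOR complex 1 at the lysosome. Transcript counts do not measure protein, its placement in the membrane or transport.

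Total counts ran from 15110451 to 18351748 in cKO libraries and from 15982538 to 18708335 in WT libraries. Rictor was at 30.4, 39.6, 20.8 and 40.6 CPM (reads scaled to the TMM-adjusted library total) in cKO libraries 1 to 4, against 41.7, 42.4, 57.3 and 51.4 CPM in WT libraries 1 to 4. Its log2 fold change was -0.55 ± 0.20 (SE; adjusted p by edgeR = 0.921, and 0.0190 unadjusted). Every cKO library was below every WT library, but counts over the whole gene do not measure the intact transcript. The median correlation of a library with the others was lowest in cKO library 3 (0.968) and WT library 3 (0.973), against 0.976 to 0.981 in the other 6. Epithelial markers were abundant, with the summed level of 14 enterocyte markers at 11503 to 16607 CPM in cKO and 9367 to 24155 CPM in WT. The 11 T cell and intraepithelial lymphocyte markers summed to 228 to 698 CPM in cKO and 180 to 584 CPM in WT, while the 9 markers of stroma, endothelium and muscle summed to at most 3.67 CPM in cKO and 2.66 CPM in WT. The 6 distal segment markers summed to at most 19.4 CPM in cKO and 21.8 CPM in WT, with Car1, Hoxb13 and Hoxd13 at 0 in every library.

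The most abundant transporter transcripts, compared per length in FPKM (fragments scaled to gene length and library size), were those of a basolateral exchanger and its partner. Slc3a2, the heavy chain also called 4F2hc or CD98, was at 58.6 ± 7.59 FPKM in cKO and 57.0 ± 11.7 FPKM in WT (SD, n = 4 each). Its light chain Slc7a8, which carries neutral amino acids, was at 53.2 ± 2.84 FPKM in cKO and 58.6 ± 10.3 FPKM in WT. The creatine transporter Slc6a8 and the cystine and dibasic amino acid carrier Slc7a9 came next, at 44.2 ± 10.2 and 44.6 ± 10.9 FPKM in cKO and at 40.9 ± 17.6 and 38.9 ± 10.7 FPKM in WT. The libraries of these 4 genes overlapped one another, so their order is not resolved. At the low end, 4 members did not pass the filter on low counts and 29 of 33 were tested.

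**Figure D1:**
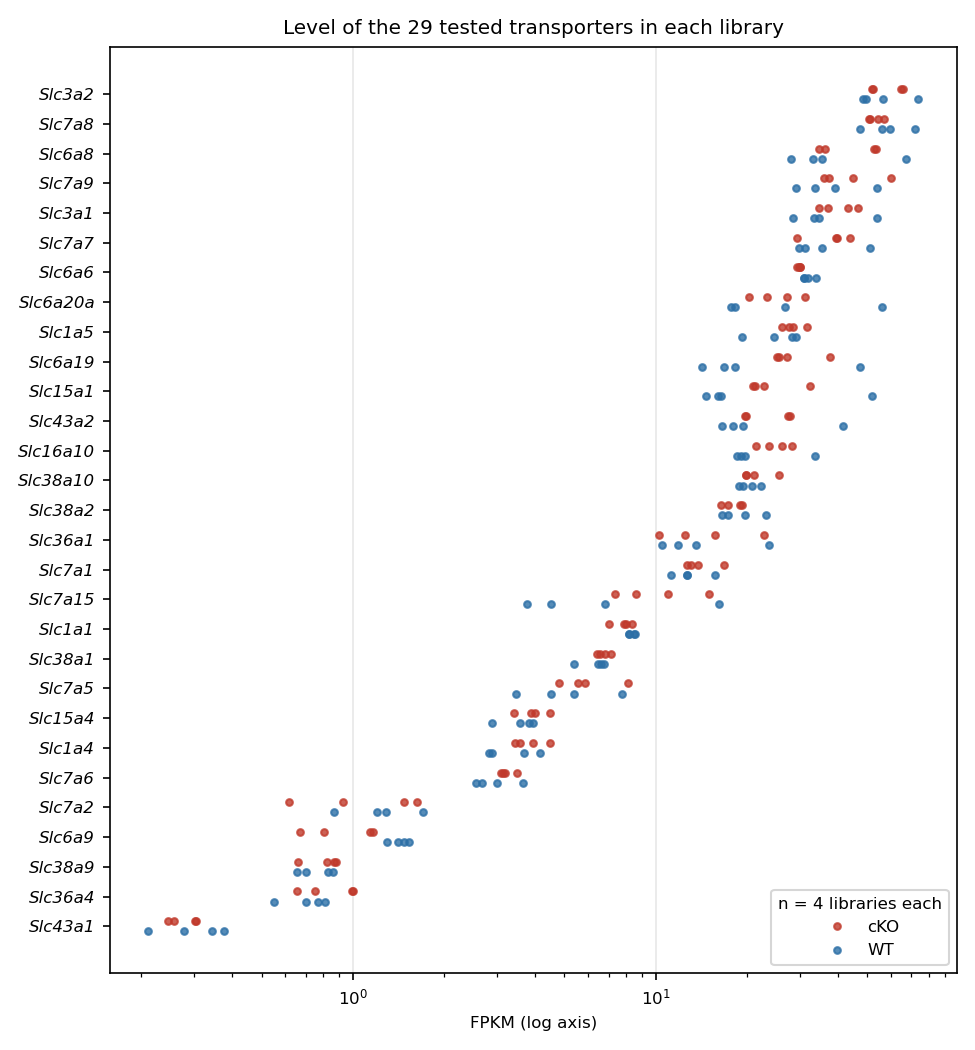
FPKM of the 29 tested transporters in each of 4 cKO (red) and 4 WT (blue) libraries, on a log axis, ordered by the mean of all 8 libraries. Slc3a2 is at the top and Slc43a1 at the bottom, and for Slc15a1, Slc6a19 and Slc6a20a 1 WT library stands to the right of the other 3.

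Between genotypes, 0 of the 29 tested transporters passed the adjusted threshold of 0.05 in edgeR, which 2 of 14701 genes (0.0136%) did. Just 1 transporter, the glycine transporter Slc6a9, had an unadjusted edgeR p under 0.05. It was lower in cKO, as were 2.07% of all genes tested by that measure, and 0 transporters were higher, against 1.83% of all genes (3.90% in either direction). Adjusted p-values of the 29 ran from 0.921 to 0.996, and DESeq2 likewise called 0 of them. Point estimates were higher in cKO for 19 and lower for 10, with a median log2 fold change of 0.090, against 0.0022 over all genes tested. Without WT library 2 these were 15, 14 and 0.018, and without cKO library 1 they were 16, 13 and 0.023. The median was 0.031 without cKO library 3, 0.051 without WT library 1 and 0.055 without WT library 4. The 95% interval lay within 1.5-fold in either direction for 16 of the 29, and reached beyond it for the other 13. The SE was smallest for Slc6a6, at 0.092, and largest for Slc7a15, at 0.47.

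**Figure D2:**
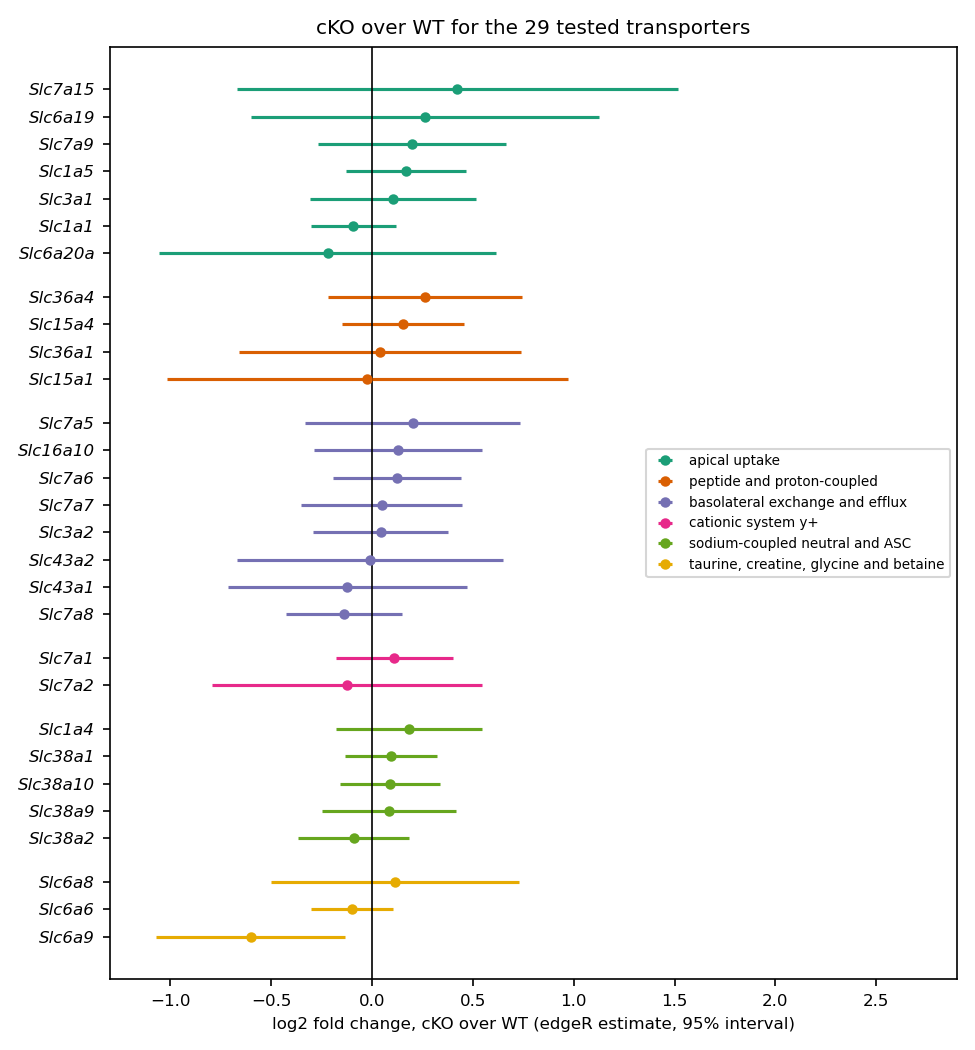
Log2 fold change of cKO over WT for the 29 tested transporters, grouped by role, as points with 95% intervals from edgeR. All intervals but that of Slc6a9 (-1.07 to -0.13) include 0, and the widest are those of Slc7a15, Slc15a1, Slc6a19 and Slc6a20a.

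Slc6a9 (ENSMUSG00000028542, chromosome 4, 117834506 to 117875198, plus strand, GRCm38) encodes GlyT1, a sodium- and chloride-coupled glycine carrier. It was at 3.49, 5.97, 4.16 and 6.03 CPM in cKO libraries 1 to 4, against 8.01, 7.35, 6.74 and 7.70 CPM in WT libraries 1 to 4. Every cKO library lay below every WT library, and cKO libraries 1 and 3 were the lowest. The mean was 4.91 ± 1.28 CPM in cKO and 7.45 ± 0.546 CPM in WT (SD, n = 4 each), or 65.9% of WT with a 95% interval of 47.7 to 91.2. The log2 fold change was -0.60 ± 0.21 (SE; adjusted p by edgeR = 0.921, and 0.0164 unadjusted). A two-sided exact permutation test gave p = 0.0286, which no comparison of 4 libraries with 4 can go below. That p restates that the groups do not overlap and adds nothing to it, and Slc6a6, described next, has the same value. The Slc6a9 difference rests on 59 to 101 reads per cKO library and 109 to 151 reads per WT library. Without any 1 library the estimate ran from -0.71 to -0.47, and its unadjusted edgeR p stayed under 0.05 in each of those fits, at 0.0110 to 0.0449, while adjusted p-values over all alternatives ran from 0.517 to 0.9995. Overlapping genes on the opposite strand had few reads, at most a mean of 8.25 in cKO and 6.25 in WT for B4galt2. In the libraries with the lowest Slc6a9, cKO 1 and 3, stem and crypt markers summed to 3481 and 3843 CPM, against 4777 and 4483 CPM in cKO libraries 2 and 4 and 4173 to 5054 CPM in WT. T cell and intraepithelial lymphocyte markers summed to 530 and 698 CPM in cKO libraries 1 and 3, against 228 and 254 CPM in cKO libraries 2 and 4 and 180 to 584 CPM in WT. Enterocyte, goblet and myeloid markers were also higher in cKO libraries 1 and 3 than in 2 and 4, and proliferation markers were lower. The scarce markers of stroma, endothelium and muscle were higher there too. The remaining marker lists did not split these libraries in this way. The part of any marker list in the Slc6a9 result was not tested.

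The taurine transporter Slc6a6 (ENSMUSG00000030096, chromosome 6, 91684053 to 91759066) was the other member whose groups did not overlap, so that 2 of 29 stood apart with cKO below WT, against 1.80% of all genes tested, and 0 with cKO above WT, against 1.41% (3.21% in either direction). Taurine, an amino sulfonic acid, conjugates bile acids and acts as an osmolyte. Slc6a6 was at 258, 256, 250 and 255 CPM in cKO libraries 1 to 4, against 291, 273, 265 and 264 CPM in WT libraries 1 to 4. The cKO libraries spanned a narrow range just under the lowest WT library. The log2 fold change was -0.10 ± 0.09 (SE; adjusted p by edgeR = 0.921, and 0.295 unadjusted), with a 95% interval of 81.0% to 107% of WT.

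The creatine transporter Slc6a8, which supplies the phosphocreatine energy buffer, was at 278, 192, 281 and 182 CPM in cKO libraries 1 to 4, against 174, 187, 353 and 148 CPM in WT libraries 1 to 4. The groups overlapped, with the highest value in WT library 3. The betaine and GABA carrier Slc6a12 had 4 reads over the cKO libraries and 6 over the WT libraries, too few to test.

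**Figure D3:**
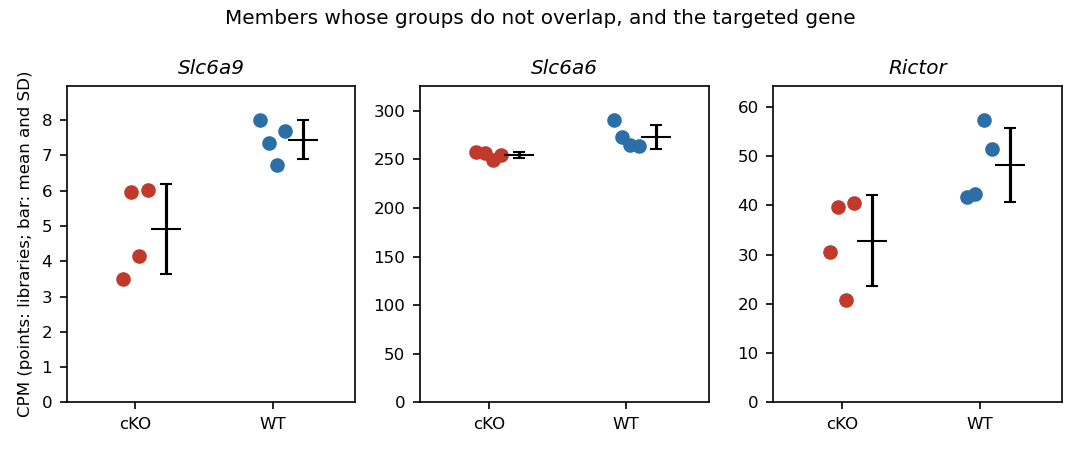
CPM of Slc6a9, Slc6a6 and the targeted gene Rictor in 4 cKO (red, left) and 4 WT (blue, right) libraries, with the mean and SD beside the points. In each panel the groups do not overlap, with a wide gap of means for Slc6a9 (4.91 and 7.45 CPM) and a narrow one for Slc6a6 (255 and 273 CPM).

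Carriers of the brush border had no called member among the 7 tested of 8, with 5 point estimates higher and 2 lower in cKO. Slc1a5, an exchanger of glutamine and other neutral amino acids (ASCT2), was at 111, 134, 116 and 120 CPM in cKO libraries 1 to 4, against 123, 119, 81.7 and 104 CPM in WT libraries 1 to 4. Its groups overlapped and WT library 3 was the lowest. The log2 fold change was 0.17 ± 0.13 (SE; adjusted p by edgeR = 0.921). Slc1a1, the carrier of glutamate and aspartate (EAAT3), was at 49.9, 49.4, 51.9 and 43.6 CPM in cKO libraries 1 to 4, against 53.2, 52.7, 51.0 and 50.9 CPM in WT libraries 1 to 4. Its libraries lay close together, with cKO library 4 lowest, and the 95% interval was 81.1% to 109% of WT.

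Slc7a9 is the light chain of system b0,+, which takes up cystine and dibasic amino acids with the heavy chain Slc3a1, and mutations of either cause cystinuria in humans. Slc7a9 was at 162, 98.2, 121 and 101 CPM in cKO libraries 1 to 4, against 91.1, 106, 146 and 78.5 CPM in WT libraries 1 to 4. The groups overlapped widely (log2 fold change 0.20 ± 0.21, SE; adjusted p by edgeR = 0.921). Slc3a1 averaged 94.2 ± 12.7 CPM in cKO and 87.6 ± 26.1 CPM in WT (SD, n = 4 each). The FPKM ratio of Slc7a9 to Slc3a1 was 1.10 ± 0.187 in cKO and 1.05 ± 0.227 in WT (SD, n = 4 each). Single libraries ran from 0.839 to 1.37. By these means both chains had about the same level per length, but equality of the chains was not tested. Only the ratio in cKO against WT was tested (exact two-sided permutation p = 0.800, and 0.800 adjusted over 4 such ratios). Slc3a1 overlaps Prepl on the opposite strand by 767 bases, and no source states whether counting used strand.

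Of the 33 members, 26 had a promoter of 250 bases before to 50 after a start site in RefSeq (GRCm38.p6), 41 promoters in all. These were searched on both strands for 3 motifs, each of which could overlap the others: CAAAGTCCA, bound by HNF4, the palindromic HNF1 motif, and TGATGNAA, the element bound by ATF4 during amino acid shortage. HNF4 and HNF1 are transcription factors of the enterocyte. The HNF4 letters were in 1 member promoter, that of Slc3a1, and in 0.475% of all 32851 promoters. The HNF1 letters were in 0 member promoters and in 0.00913% of all. The ATF4 letters were in 3 member promoters, 1 of Slc1a4 and 2 of Slc7a7 that overlap and share a match, and in 3.97% of all. A match is a description of the letters and not a binding site. The Slc3a1 promoter (GRCm38.p6 chr17:85028097-85028396, plus strand) is shown with the HNF4 match in capitals, as the only member promoter with these letters. Any relation of the match to the level of Slc3a1 was not tested.
Slc3a1: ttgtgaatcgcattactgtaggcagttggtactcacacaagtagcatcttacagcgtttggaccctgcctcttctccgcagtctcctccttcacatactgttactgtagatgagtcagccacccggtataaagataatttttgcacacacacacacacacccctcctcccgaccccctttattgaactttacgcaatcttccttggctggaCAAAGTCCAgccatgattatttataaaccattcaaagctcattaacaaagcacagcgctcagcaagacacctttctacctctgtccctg

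The sodium-coupled carrier of neutral amino acids Slc6a19 (B0AT1) and the imino acid carrier Slc6a20a varied widely among the WT libraries, with coefficients of variation of 64.2% and 60.9%. Slc6a19 was at 191, 139, 129 and 127 CPM in cKO libraries 1 to 4, against 85.0, 92.8, 239 and 71.9 CPM in WT libraries 1 to 4. WT library 3 was above all cKO libraries and the other 3 WT libraries were below them. The log2 fold change was 0.26 ± 0.38 (SE; adjusted p by edgeR = 0.929), and 0.82 ± 0.16 without WT library 3 (adjusted p = 0.283). Slc6a20a was at 84.0, 113, 96.5 and 128 CPM in cKO libraries 1 to 4, against 73.2, 75.7, 232 and 110 CPM in WT libraries 1 to 4, and again WT library 3 was the highest. Its log2 fold change was -0.22 ± 0.37 (SE; adjusted p by edgeR = 0.940), and 0.29 without WT library 3. Slc7a15, a rodent carrier of aromatic amino acids, was at 45.4, 33.4, 22.2 and 25.9 CPM in cKO libraries 1 to 4, against 13.6, 20.6, 49.2 and 11.4 CPM in WT libraries 1 to 4. Its log2 fold change was 0.42 ± 0.47 (SE; adjusted p by edgeR = 0.922), and 1.06 ± 0.27 without WT library 3 (adjusted p = 0.565). Values of Slc6a19, Slc6a20a and Slc7a15 are given although the rule for full values did not pick them, and were chosen after they had been seen.

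Slc6a14, a broad neutral and cationic amino acid carrier known from the colon and lung, had 0 reads in all 4 cKO libraries and 1 to 7 reads in each WT library. The sum was 0 reads in cKO and 13 in WT. With a floor of 3 reads over the group in place of 0, cKO was 4.18-fold lower. That value takes the 13 WT reads as exact, so it is not a lower bound, and it covers no spread between libraries. Of the 13 reads, 7 were in WT library 4.

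Peptide and proton-coupled carriers had 3 higher and 1 lower point estimates among 4 tested, and 0 were called. Slc15a1 (ENSMUSG00000025557, chromosome 14, 121459621 to 121505252, minus strand), the brush border carrier PEPT1 for di- and tripeptides, was at 160, 113, 105 and 103 CPM in cKO libraries 1 to 4. In WT libraries 1 to 4 it was at 79.5, 81.0, 257 and 72.6 CPM. The cKO libraries lay between WT library 3 and the other 3 WT libraries, and the log2 fold change was -0.02 ± 0.43 (SE; adjusted p by edgeR = 0.994). Without WT library 3 it was 0.63 ± 0.16 (edgeR adjusted p = 0.552). The direction also turned without any 1 of cKO libraries 2, 3 and 4 (0.011 to 0.046) and with the replicate block (0.20), so none is given.

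Slc15a4, a proton-coupled histidine and peptide carrier of the endolysosome, was at 21.5, 21.0, 24.1 and 18.3 CPM in cKO libraries 1 to 4, against 21.2, 20.4, 15.5 and 19.1 CPM in WT libraries 1 to 4. Its groups overlapped, with a log2 fold change of 0.15 ± 0.14 (SE; adjusted p by edgeR = 0.921). Slc36a4, a high-affinity carrier of proline and tryptophan, was at 6.63, 6.62, 4.33 and 4.94 CPM in cKO libraries 1 to 4, against 5.09, 5.36, 3.65 and 4.65 CPM in WT libraries 1 to 4. Its log2 fold change was 0.26 ± 0.22 (SE; adjusted p by edgeR = 0.921). Slc36a1, the proton-coupled carrier of small neutral amino acids (PAT1), averaged 87.1 ± 31.0 CPM in cKO and 84.7 ± 33.9 CPM in WT (SD, n = 4 each), with the highest values in cKO library 1 and WT library 3.

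Basolateral carriers had 5 higher and 3 lower point estimates among 8 tested, and 0 were called. The heavy chain Slc3a2 (ENSMUSG00000010095, chromosome 19, 8706882 to 8723369) was at 231, 188, 234 and 184 CPM in cKO libraries 1 to 4, against 201, 172, 264 and 177 CPM in WT libraries 1 to 4. The groups overlapped, with a log2 fold change of 0.04 ± 0.15 (SE; adjusted p by edgeR = 0.971). Its light chain Slc7a8 (LAT2) was at 260, 258, 287 and 273 CPM in cKO libraries 1 to 4, against 283, 239, 364 and 301 CPM in WT libraries 1 to 4. WT library 3 was again the highest, and the log2 fold change was -0.14 ± 0.13 (SE; adjusted p by edgeR = 0.921). The 4 light chains Slc7a5, Slc7a6, Slc7a7 and Slc7a8 together had 1.73 ± 0.159 times the FPKM of Slc3a2 in cKO and 1.83 ± 0.149 times in WT (SD, n = 4 each; exact two-sided permutation p = 0.400, and 0.533 adjusted over 4 ratios). LAT1, encoded by Slc7a5 and typical of dividing cells, was at 6.08 ± 1.43 FPKM in cKO and 5.29 ± 1.84 FPKM in WT, so that it reached 0.114 ± 0.0223 of the Slc7a8 level in cKO and 0.0943 ± 0.0402 in WT.

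The other basolateral carriers had log2 fold changes between -0.12 (Slc43a1) and 0.20 (Slc7a5). Slc43a2, a facilitator of large neutral amino acids (LAT4), averaged 241 ± 45.5 CPM in cKO and 243 ± 121 CPM in WT, and Slc16a10, the aromatic amino acid carrier TAT1, 185 ± 22.2 CPM in cKO and 169 ± 53.6 CPM in WT (SD, n = 4 each). Slc7a7, the y+LAT1 light chain that exports dibasic amino acids and is mutated in human lysinuric protein intolerance, averaged 128 ± 20.3 CPM in cKO and 123 ± 32.8 CPM in WT. It overlaps the abundant Oxa1l on the opposite strand by 232 bases. The farther upstream of its 2 promoters with a match (GRCm38.p6 chr14:54417895-54418194, minus strand) is shown because it held the ATF4 letters at 2 places, which are in capitals.
Slc7a7: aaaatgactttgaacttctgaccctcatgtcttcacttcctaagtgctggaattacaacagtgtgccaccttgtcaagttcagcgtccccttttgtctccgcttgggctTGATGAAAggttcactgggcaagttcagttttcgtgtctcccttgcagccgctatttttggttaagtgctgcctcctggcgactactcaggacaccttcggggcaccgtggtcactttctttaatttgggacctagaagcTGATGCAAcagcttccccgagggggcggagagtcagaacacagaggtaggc

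Of the cationic carriers of system y+, Slc7a1 (CAT1), the housekeeping carrier of arginine and lysine, was at 148, 162, 195 and 152 CPM in cKO libraries 1 to 4, against 184, 147, 131 and 148 CPM in WT libraries 1 to 4. The groups overlapped, with a log2 fold change of 0.11 ± 0.13 (SE; adjusted p by edgeR = 0.923). The lower Slc7a2 (CAT2) averaged 10.7 ± 4.39 CPM in cKO and 11.7 ± 3.19 CPM in WT (SD, n = 4 each).

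Among 5 tested sodium-coupled neutral and ASC carriers of 7, 4 had higher and 1 lower point estimates, and 0 were called. Slc38a10, an intracellular member of the SNAT family, was at 130, 138, 166 and 129 CPM in cKO libraries 1 to 4, against 135, 126, 144 and 122 CPM in WT libraries 1 to 4. Slc38a1 (SNAT1), a glutamine carrier, was at 112, 120, 124 and 113 CPM in cKO libraries 1 to 4, against 115, 112, 94.0 and 118 CPM in WT libraries 1 to 4. Both genes overlapped between groups and varied little, with log2 fold changes of 0.09 ± 0.11 and 0.09 ± 0.10 (SE; adjusted p by edgeR = 0.924 and 0.922). Slc38a2 (SNAT2), which is induced by amino acid shortage, averaged 161 ± 13.0 CPM in cKO and 172 ± 26.3 CPM in WT, and Slc38a9, the lysosomal arginine sensor of mTOR complex 1, 13.6 ± 1.71 CPM in cKO and 12.9 ± 1.66 CPM in WT (SD, n = 4 each). Slc38a3 had 14 reads over the cKO libraries and 30 over the WT libraries. Slc38a5 had 1 read over cKO and 10 over WT, a ratio of 0.104 with a 95% counting interval of 0.00239 to 0.729, which does not cover the spread between libraries.

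Slc1a4 (ASCT1), an exchanger of alanine, serine and cysteine, was at 13.7, 17.8, 15.6 and 14.1 CPM in cKO libraries 1 to 4, against 16.5, 14.6, 11.5 and 11.2 CPM in WT libraries 1 to 4. The groups overlapped, with a log2 fold change of 0.18 ± 0.16 (SE; adjusted p by edgeR = 0.921). Its promoter (GRCm38.p6 chr11:20332664-20332963, minus strand) held the ATF4 letters once, on the reverse strand across the start site, in capitals here.
Slc1a4: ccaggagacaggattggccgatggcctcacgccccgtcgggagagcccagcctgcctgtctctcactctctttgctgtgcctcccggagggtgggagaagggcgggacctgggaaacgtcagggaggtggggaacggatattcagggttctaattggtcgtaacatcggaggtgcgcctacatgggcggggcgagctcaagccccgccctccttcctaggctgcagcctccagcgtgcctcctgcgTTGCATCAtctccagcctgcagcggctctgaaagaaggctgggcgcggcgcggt

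Part of the transporters varied together with enterocyte markers. An enterocyte score, the median over 14 markers (none of them a transporter described here) of log2 CPM centred on the 8 libraries, was 0.31, -0.15, 0.10 and -0.16 in cKO libraries 1 to 4, against -0.41, -0.18, 0.83 and -0.35 in WT libraries 1 to 4. WT library 3 and cKO library 1 were the highest. In bulk RNA, a larger share of enterocytes and more RNA per enterocyte cannot be told apart. Across the 8 libraries, 17 of 29 transporters had a positive Pearson correlation with the score and 12 a negative one. After adjustment over the 29 relations 11 positive and 0 negative correlations passed (exact permutation of the 40320 pairings, two-sided), and 8 of the 11 also passed by Spearman's rho. The share of all genes tested that follow the score was not computed. The count of 11 is therefore not shown to be particular to the transporters.

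The closest was Slc43a2, with r = 0.985 (exact permutation p = 0.000174, adjusted 0.00503) and rho = 0.976 (exact p = 0.000397, adjusted 0.0110), and r = 0.967 without WT library 3 and cKO library 1. Slc6a8 followed with r = 0.941 (exact permutation p = 0.000868, adjusted 0.00629), rho = 0.929 (exact p = 0.00223, adjusted 0.0162) and r = 0.901 without these libraries. For Slc7a9, r was 0.864 (exact permutation p = 0.00459, adjusted 0.0185), rho was 0.857 (exact p = 0.0107, adjusted 0.0389), and r without them was 0.883. These 3 relations held at an exact p under 0.05 over the remaining 6 libraries.

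Slc15a1 (r = 0.959, exact permutation p = 0.000868, adjusted 0.00629; rho = 0.952, exact p = 0.00114, adjusted 0.0110) and Slc6a19 (r = 0.912, exact permutation p = 0.000694, adjusted 0.00629; rho = 0.952, exact p = 0.00114, adjusted 0.0110) fell to r = 0.715 and 0.752 without these libraries. Slc36a1, Slc16a10, Slc3a2, Slc7a7, Slc7a15 and Slc3a1 had r between 0.813 and 0.903, and between 0.256 and 0.693 without them. All 8 stayed positive over the remaining 6 libraries, which span a narrower range of scores, but none had an exact p under 0.05 there, so at that threshold they rest on WT library 3 and cKO library 1. Correlations within a genotype were not tested. With the mean of each genotype removed, r of the 11 genes was between 0.823 and 0.985, given without a test. On the other side, Slc1a5 had r = -0.755 (exact permutation p = 0.0474, adjusted 0.115; rho = -0.452, exact p = 0.267, adjusted 0.485), and r = 0.155 without WT library 3 and cKO library 1. Slc6a9 had r = -0.414 (exact permutation p = 0.311, adjusted 0.410; rho = -0.762, exact p = 0.0368, adjusted 0.118), and r = -0.944 without these libraries. In the 6 libraries left every cKO score is above every WT score, and Slc6a9 is lower in every cKO library. That r therefore also holds the difference between genotypes. With the mean of each genotype removed, r of Slc6a9 over all libraries was -0.585, given without a test.

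**Figure D4:**
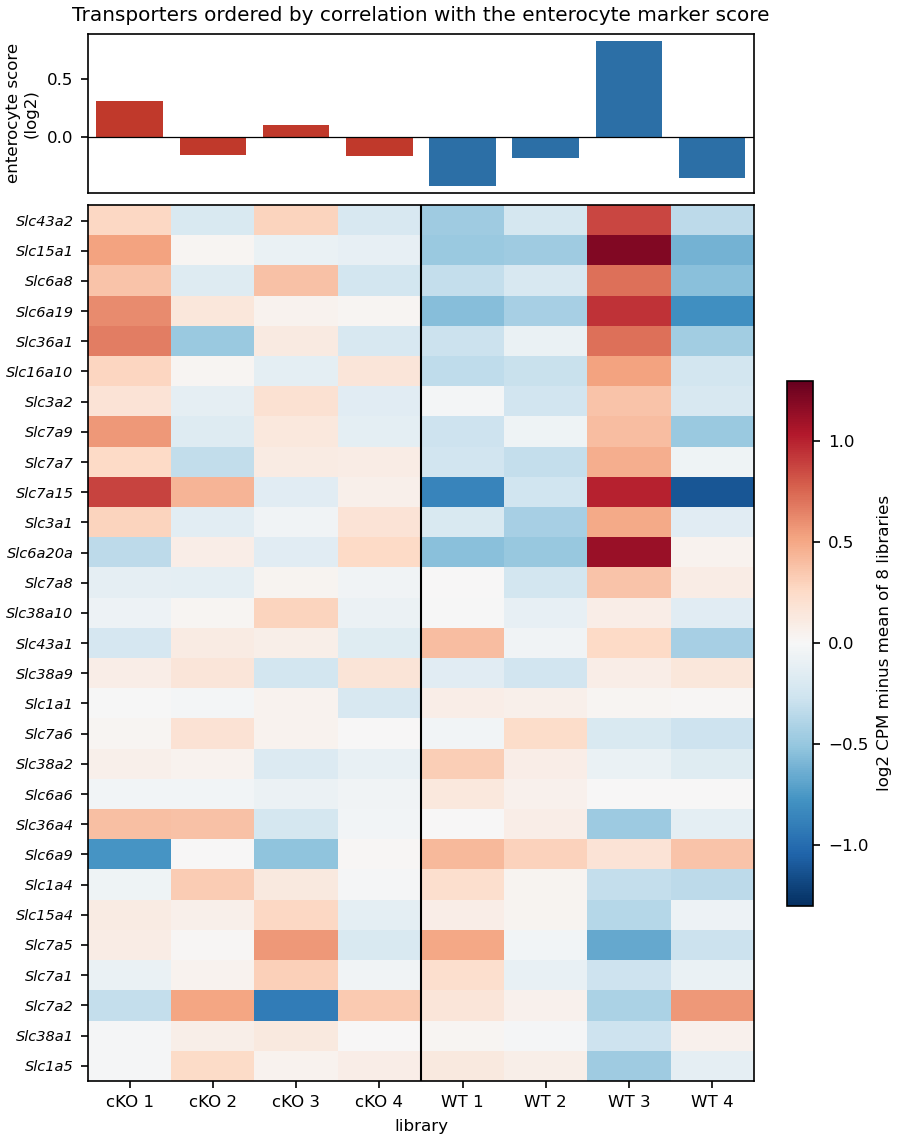
Top, enterocyte score (log2) of each library, cKO red and WT blue; below, log2 CPM of the 29 tested transporters minus their mean over 8 libraries, ordered from the highest correlation with the score (Slc43a2, r = 0.985) to the lowest (Slc1a5, r = -0.755). WT library 3, with the score of 0.83, is the highest library for 10 of the upper 11 genes, which were picked by their correlation with that score.

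**Figure D5:**
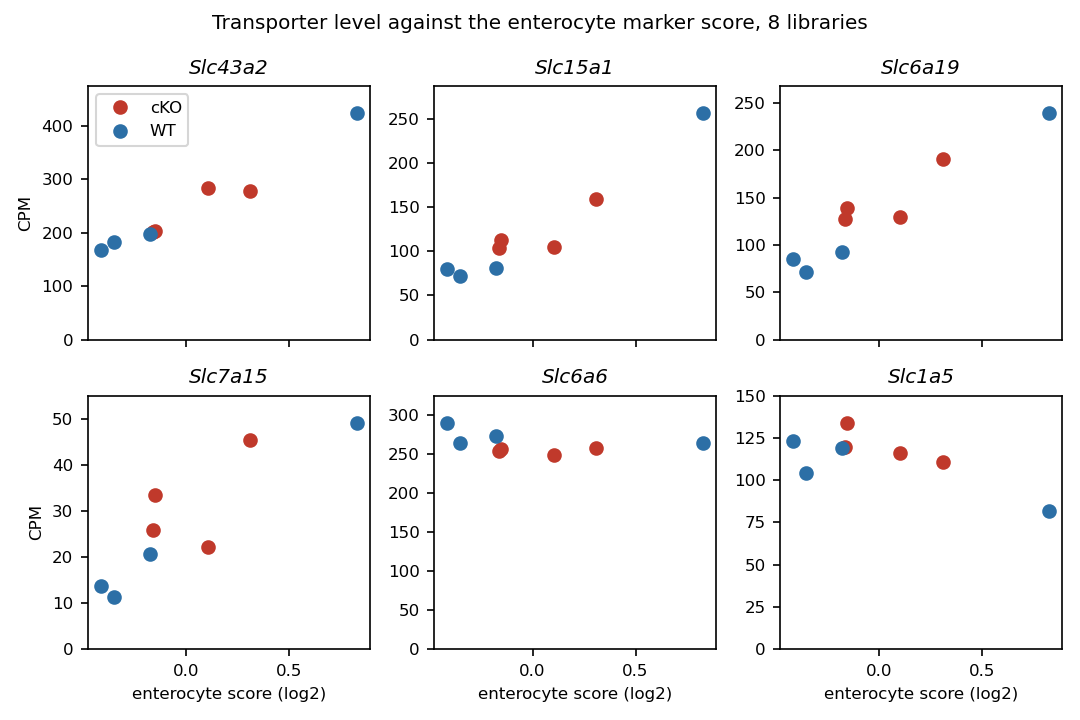
CPM of 6 transporters against the enterocyte score in 4 cKO (red) and 4 WT (blue) libraries. Slc43a2, Slc15a1, Slc6a19 and Slc7a15 rise with the score over the 8 libraries, Slc6a6 stays between 250 and 291 CPM, and Slc1a5 is lowest (81.7 CPM) at the highest score.

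The 11 transporters that followed the enterocyte score were picked by that relation, and the score is highest in WT library 3. A peak in that library therefore follows in part from the choice. WT library 3 was the highest library for 10 of these 11 transporters and for 2 of the other 18. Without it, 8 of 29 transporters had an unadjusted edgeR p under 0.05, 7 higher and 1 lower in cKO, against 4.33% of all genes tested in that fit (2.76% higher and 1.58% lower), and 0 passed adjusted, the smallest adjusted p being 0.283. The 7 were Slc6a19, Slc7a15, Slc15a1, Slc6a8, Slc43a2, Slc16a10 and Slc3a1, at 0.82, 1.06, 0.63, 0.46, 0.40, 0.38 and 0.33 on the log2 scale. All 7 are among the 11 that followed the score and are highest in WT library 3. Leaving that library out therefore raises their estimates. They also vary together, so their number does not count separate results. With both libraries 3 left out there were 7, 6 higher and 1 lower, against 5.05% of all genes (2.05% of them lower). With WT library 3 and cKO library 1 left out, the 2 highest in enterocyte score, there were 5, against 4.45% of all genes (2.56% higher and 1.89% lower). The 4 higher ones were Slc6a19 at 0.66, Slc7a15 at 0.84, Slc15a1 at 0.47 and Slc16a10 at 0.31, and Slc6a9 was lower, with adjusted p-values from 0.419 to 0.870. The enterocyte score in the libraries then left was -0.15, 0.10 and -0.16 in cKO and -0.41, -0.18 and -0.35 in WT, and its part in these values was not tested.

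Other amino acid carriers gave 0 called genes among 13 tested of 28, with 9 higher and 4 lower point estimates. The glutamate carrier Slc1a3 was at 18.2 ± 3.78 CPM in cKO and 14.3 ± 2.56 CPM in WT, and Slc38a4 (SNAT4) at 1.56 ± 0.374 CPM in cKO and 0.883 ± 0.493 CPM in WT (SD, n = 4 each), both with overlapping groups and an edgeR adjusted p of 0.921. Slc6a20b, a paralog that can share reads with Slc6a20a, was at 0.107 ± 0.0691 FPKM in cKO and 0.228 ± 0.334 FPKM in WT. Among 10 tested mitochondrial amino acid carriers of 12, 6 were higher, 4 lower and 0 called. Sfxn3 and Sfxn2, sideroflexins of the inner mitochondrial membrane, had log2 fold changes of 0.42 ± 0.24 and 0.19 ± 0.14 (SE; adjusted p by edgeR = 0.921 each).

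The list of transporter partners and apical scaffold genes had 0 called genes among 10 tested of 11. The brush border peptidase Anpep was at 505 ± 107 FPKM in cKO and 561 ± 212 FPKM in WT (SD, n = 4 each). Slc9a3, the sodium-proton exchanger NHE3 that restores the proton gradient for peptide uptake, was at 563, 164, 456 and 227 CPM in cKO libraries 1 to 4, against 234, 330, 323 and 172 CPM in WT libraries 1 to 4. Its libraries varied widely in cKO (log2 fold change 0.41 ± 0.40, SE; adjusted p by edgeR = 0.921). Nedd4l, a ubiquitin ligase of membrane carriers that SGK1 inhibits, had -0.10 ± 0.10 (SE; adjusted p by edgeR = 0.921).

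Of 29 tested genes that relay amino acids to mTOR complex 1, 17 were higher and 12 lower, and 0 were called. An unadjusted edgeR p under 0.05 was found for 2, 1 higher and 1 lower, against 3.90% of all genes tested. In this list 1 gene stood apart with cKO below WT, against 1.80% of all genes, and 1 with cKO above WT, against 1.41%. Rragd, a Rag GTPase that recruits mTOR complex 1 to the lysosome, was at 129, 124, 93.5 and 134 CPM in cKO libraries 1 to 4, against 162, 169, 188 and 172 CPM in WT libraries 1 to 4. The groups did not overlap, and cKO library 3 was the lowest. The log2 fold change was -0.52 ± 0.13 (SE; adjusted p by edgeR = 0.630, and 0.00154 unadjusted), and it ran from -0.57 to -0.38 over the alternative fits. Itfg2, a subunit of the KICSTOR complex, was at 19.5 ± 2.38 CPM in cKO and 15.6 ± 1.91 CPM in WT (SD, n = 4 each), and edgeR gave it an unadjusted p of 0.0428 (adjusted 0.921).

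Genes of the ATF4 response to amino acid shortage, whose targets include several of these transporters, gave 9 higher, 11 lower and 0 called members among 20 tested of 22, with a median log2 fold change of -0.0083. Chac1, which degrades glutathione, was at 1.59 ± 0.717 CPM in cKO and 3.97 ± 3.61 CPM in WT, with the highest value, 8.75 CPM, in WT library 1. Phgdh, the first enzyme of serine synthesis, averaged 27.6 ± 3.94 CPM in cKO and 21.0 ± 6.47 CPM in WT (SD, n = 4 each). Its lowest value, 11.4 CPM, was in WT library 3, the log2 fold change was 0.40 ± 0.22 (SE; adjusted p by edgeR = 0.921), and Asns, which makes asparagine, was at 17.8 ± 3.17 FPKM in cKO and 20.2 ± 4.70 FPKM in WT (SD, n = 4 each).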

How the data were processed

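RNA was measured in 8 libraries grouped by the titles of the labels. The authors deposited raw counts of reads for each gene and, in a second table, FPKM that they computed for the same genes. The series' design text names an Illumina NovaSeq instrument, Hisat2 and Stringtie. Versions, build, counting program, library kit and strand setting: not given in the sources used here. Of the identifiers, 53620 are in GENCODE M21 (GRCm38) and 97.1% of these have identical coordinates there, as have 32 of the 33 transporters (Slc3a1 differs). Libraries all differed by more than sampling noise (lowest chi-square per degree of freedom 9.84).

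Counts were tested with edgeR 4.0.16 (R 4.3.3), with TMM factors, the default filter (14701 genes kept), a robust quasi-likelihood F-test with genotype as the only term, and p-values adjusted by Benjamini-Hochberg across every gene kept, at a threshold of 0.05. SE is the log2 fold change divided by the square root of F. Fold changes are cKO over WT. CPM use TMM-scaled totals; the enterocyte score uses log2 CPM with a prior count of 2. Alternatives were DESeq2 1.42.0 size factors and Wald test, other filters, leaving out libraries, the replicate block, limma 3.58.1 with sample quality weights, and limma on log2(FPKM + 0.1) and log2(FPKM + 1). Exact permutation tests used SciPy 1.17.1. On simulated counts for this comparison and the same 14701 genes, edgeR called 10.4% of 67 genes changed 1.5-fold, 56.7% of 67 changed 2-fold and 89.4% of 66 changed 4-fold. The simulation changed many genes at once, which eases the adjusted threshold, and drew genes independently, with no shift shared within a library. Recovery in the real data may therefore be lower. Counting intervals cover counting error only, and a floor takes the count of the other group as exact.

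The members, lists and alternatives were chosen with earlier results of these data known. Full values go to called members, to the 10 with the smallest p, and to the member with the highest FPKM of each role; from each other list, to called genes and the 2 with the smallest p. Castor1 and Castor2 were matched by identifier under their older symbols. The correlation with the enterocyte score and the fit without WT library 3 and cKO library 1 were added after the data had been seen.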

Additional observations from a re-analysis of the deposited data

Results flagged for a closer look

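For 5 genes, 1 WT library was separated from the rest of its genotype by most of the range, and it was WT library 3 each time. Chance gives about 1 such group in 20, and 80 groups were examined.

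Slc15a1 was at 257 CPM in WT library 3 and at 72.6 to 81.0 CPM in the other WT libraries, a gap of 0.954 of the range. Slc43a2 was at 423 CPM there and at 168 to 197 CPM in the others, a gap of 0.886. Slc6a19 was at 239 CPM there and at 71.9 to 92.8 CPM in the others, a gap of 0.875. Slc16a10 was at 249 CPM there and at 139 to 147 CPM in the others, a gap of 0.926. Phgdh was low there, at 11.4 CPM against 23.2 to 25.4 CPM in the others, a gap of 0.839. WT library 3 also had the highest enterocyte score (0.83) and the highest mitochondrial share of counts, 7.71%, and the part of these in the 5 values was not tested.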

How the results depend on the processing

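Under every alternative 0 transporters were called. The number of genes called across the transcriptome, 2 here, was 10 without a filter, 8 with sample quality weights, 40 by the DESeq2 Wald test and 0 in limma on log2(FPKM + 0.1) and on log2(FPKM + 1). It was 4 without both libraries 3, 0 without WT library 3 and cKO library 1, and 0 to 3 without 1 library. Transporters with an unadjusted p under 0.05, 1 here, were 3 without a filter (4.13% of all genes in that fit), 3 on unfiltered log2(FPKM + 0.1) (3.77%), 4 with sample quality weights (8.14%), 2 by DESeq2 (2.82%), 7 without both libraries 3 (5.05%), 5 without WT library 3 and cKO library 1 (4.45%), and 1 to 8 without 1 library, the 8 being without WT library 3 (4.33%). Those higher in cKO without WT library 3 vary together with the enterocyte score, so their number does not count separate results.

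Several signs turned. Slc15a1 was at 0.20 with the replicate block, 0.41 with sample quality weights, 0.18 and 0.16 on log2(FPKM + 0.1) and log2(FPKM + 1), 0.18 unfiltered, 0.69 without both libraries 3, 0.47 without WT library 3 and cKO library 1, and -0.21 to 0.63 without 1 library. Without 1 library Slc3a2 ran from -0.030 to 0.19 and Slc6a8 from -0.029 to 0.46. Slc43a2, at -0.012 in the main fit, was at 0.40 without WT library 3. Slc36a1 and Slc7a7, at 0.040 and 0.048 in the main fit, were at -0.22 and -0.027 without cKO library 1. Slc7a2, at -0.13 in the main fit, was at 0.092 with sample quality weights. With sample quality weights Slc7a1 was at -0.0073, Slc15a4 at -0.014, Slc7a5 at -0.11 and Slc9a3 at -0.11, and Slc6a20a at 0.39. Without both libraries 3 Slc7a1 was at -0.048, Slc15a4 at -0.00075, Slc38a1 at -0.0025, Slc7a5 at -0.13 and Slc6a20a at 0.33. The correlation of Slc1a5 with the enterocyte score was 0.155 without its 2 farthest libraries. The cause of these changes was not tested.

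The labels do not say that a replicate number marks a shared batch or litter. Same-numbered deviations correlated at -0.108, 0.108, 0.152 and 0.138 for numbers 1 to 4, and numbers 3 and 4 but not 1 and 2 matched best with their own, so the numbers were not treated as pairs. With the replicate block 0 genes were called across the transcriptome. In that fit 1 transporter had an unadjusted edgeR p under 0.05, against 3.77% of all genes tested. The intervals of 13 transporters reach beyond 1.5-fold, including abundant ones such as Slc15a1 and Slc6a19.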
